A study of Mus musculus with 2 samples.

Results

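Among Klf1-positive cells from mice given AG-120, the 322 cells that ranked highest for the erythroid genes Cldn13, Hebp1, Sphk1 and Add2 are described here. They came from 1 single-cell library with 3224 Klf1-positive cells in all, of 7670 cells kept in the study. Klf1 encodes an erythroid transcription factor, and a cell counted as positive with at least 1 unique molecular identifier (UMI, a tag that marks 1 captured RNA molecule) of it. Each positive cell was ranked by its summed UMIs of the 4 genes as counts-per-million (CPM) of its own UMIs, and the top 10% were taken. They are called the top-ranked cells below, and the other 2902 Klf1-positive cells of that library the remaining cells. Levels of a group of cells are likewise CPM of the UMIs summed over its cells. The sample titles name the cells I1DN LSCs and the protocol I1DN progenitors. They came from mice, were sorted as cKit+ and Cd11b-, and belong to a series on leukemia stem cells of acute myeloid leukemia with mutant IDH1. Mice had received AG-120 (ivosidenib, an inhibitor of the mutant form of isocitrate dehydrogenase 1) or its vehicle for 5 days, with 1 library per treatment. The labels used here give neither strain, age nor the number of mice behind a library. With 1 library there is no replicate and no test: every ratio describes these cells, and intervals are exact 95% intervals that cover counting error only.

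Red cells arise from progenitors that divide several times while they fill with hemoglobin, a complex of alpha and beta globin chains around heme. As they mature, GATA1 takes over from GATA2 on chromatin, enzymes of heme synthesis and iron uptake are produced, a spectrin-based skeleton is laid under the membrane, and globin comes to dominate the RNA. Late cells then leave the cell cycle, condense their nucleus and expel it. KIT, the receptor for stem cell factor, marks the early part of this path, and the band 3 anion exchanger Slc4a1 and the erythroid heme enzyme Alas2 mark the later part.

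The ranking used Cldn13, a claudin of red cell precursors, Hebp1, a heme-binding protein, Sphk1, which makes sphingosine 1-phosphate, and Add2, a subunit of the membrane skeleton protein adducin. The cells were chosen by these values, which are therefore no finding. Hebp1 had 381 CPM in the top-ranked cells and 72.5 in the remaining ones, and supplied 45.7% of the ranking UMIs. Cldn13 had 180.04 against 26.4, Sphk1 140.4 against 24.3 and Add2 132 against 25.8 CPM. The cell just inside the boundary had a score of 531 CPM and the cell just outside it 530.5, and 34 cells inside and 55 outside lay within 10% of the boundary. The class is therefore a range along a continuous score. All 4 genes were seen in 290 of the top-ranked cells, 3 of them in 25 and 2 in 7, whereas 729 of the remaining cells had no UMI of any of them. Klf1 itself, also part of the rule, stood at 274 and 207 CPM.

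The AG-120 library held 96919988 UMIs over 4016 barcodes and the vehicle library 56821757 over 4146, and 20 barcodes occurred in both libraries, 1 of them among the top-ranked cells. The top-ranked cells were sequenced somewhat deeper than the rest. Their median was 34188 UMIs (1236 to 62878) and 5174 genes per cell, against 26355.5 UMIs and 4751.5 genes in the remaining cells. Mitochondrial genes gave a median of 2.56% and 2.51% of their UMIs. Above the 95th percentile of depth, 42634 UMIs, lay 41 of the 322 top-ranked and 121 of the 2902 remaining cells. The part of depth, and of droplets with 2 cells, in the differences below was not tested except where a value at equal depth is given.

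Against the label "most mature erythroid cells", the markers gave a mixed picture. The alpha globin gene Hba-a1, the marker that the ranking did not use, had a UMI in 133 of 322 top-ranked cells (41.3%) and in 204 of 2902 remaining cells (7.03%). The late genes were nearly absent in both. Slc4a1 had 23 UMIs in 14 top-ranked cells and 2 in all remaining cells together. Alas2 had 40 UMIs in 30 top-ranked cells and 30 in the remaining ones. Kit, on which the cells were sorted, stood at 33.7 CPM (30.3 to 37.3) in the top-ranked cells and 30.6 (29.4 to 31.9) in the rest, a ratio of 1.100 (0.982 to 1.23). A larger share of the top-ranked cells than of the rest thus had Hba-a1 transcripts. The late markers had the same direction at low shares, with Slc4a1 in 4.35% against 0.0689% and Alas2 in 9.32% against 1.03% of cells.

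To show the sequence beside genes that the results turn on, the stretch upstream of the RefSeq start (GRCm38.p6) is given for the 4 genes with the highest ratios outside the ranking among those with a single listed start. Up to 250 bases are given 5′ to 3′ on the gene's strand, ending before any exon of the GENCODE annotation. Capitals mark matches, on both strands, to the GATA motif or to the CACC-type motif CCNCNCCC of the family to which KLF1 belongs. The GATA motif was searched as AGATAA, as the variant ending in G, AGATAG, and with the first letter changed, TGATAA, or with both changes, TGATAG.
Sptb (chr12:76710548-76710797, minus strand): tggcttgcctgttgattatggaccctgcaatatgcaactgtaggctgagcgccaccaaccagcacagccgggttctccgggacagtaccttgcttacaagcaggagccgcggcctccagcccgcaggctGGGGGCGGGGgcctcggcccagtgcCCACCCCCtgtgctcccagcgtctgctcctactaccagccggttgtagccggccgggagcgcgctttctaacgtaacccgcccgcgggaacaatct
Hba-a1 (chr11:32283422-32283510, plus strand): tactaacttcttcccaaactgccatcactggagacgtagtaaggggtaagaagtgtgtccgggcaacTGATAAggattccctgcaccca
Rgcc (chr14:79301646-79301885, minus strand): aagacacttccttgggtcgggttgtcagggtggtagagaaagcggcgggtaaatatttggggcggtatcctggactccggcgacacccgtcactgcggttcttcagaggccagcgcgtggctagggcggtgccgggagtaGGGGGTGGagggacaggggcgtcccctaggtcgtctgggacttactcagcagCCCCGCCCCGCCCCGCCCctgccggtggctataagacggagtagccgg
Hbb-bt (chr7:103813997-103814173, minus strand): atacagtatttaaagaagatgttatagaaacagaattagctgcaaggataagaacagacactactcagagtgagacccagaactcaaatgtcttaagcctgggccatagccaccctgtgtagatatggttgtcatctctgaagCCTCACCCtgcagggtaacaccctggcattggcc
The Hba-a1 stretch holds 1 GATA match, which begins 183 bases before the start. Sptb has 3 CACC matches, Rgcc 4 and Hbb-bt 1, and the matches within Sptb and within Rgcc partly overlap. Of all 32851 listed promoters, 26.5% held the GATA motif and 45.9% the CACC motif in the 250 bases. Among 13 promoters of the 11 matched genes of the 12 highest, 4 held the first and 9 the second. A match is a description of these letters and shows no binding.

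Between the top-ranked and the remaining cells, 8062 genes had at least 500 UMIs and were measured, leaving out Klf1 and the ranking genes. A gene is called higher or lower here at 1.2-fold or more. On that rule 1086 genes (13.5%) were higher and 1710 (21.2%) lower in the top-ranked cells, and the median log2 ratio over all measured genes was −0.01. These shares are the background for the gene lists below. The remaining cells held 76674240 UMIs and the top-ranked ones 10720096. A gene low in the top-ranked cells thus reached the minimum mostly through the remaining cells, and counts of lower genes are descriptions only.

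The 12 highest ratios included genes of spectrin and of both globin chains. St3gal6, a sialyltransferase, had the highest ratio, with 38.3 CPM (34.7 to 42.2) in the top-ranked and 2.67 (2.32 to 3.07) in the remaining cells, 14.3-fold (12.1 to 17.0). Sptb, the erythroid beta spectrin, followed with 29.4 against 2.92 CPM, 10.1-fold (8.45 to 11.99). Both were spread over many cells, with a UMI in 170 and 151 of the 322. Hba-a1 was 8.91-fold and Hbb-bt, an adult beta globin gene, 6.38-fold higher. Rgcc, a regulator of cell cycle proteins, had 112 against 13.7 CPM. It is no erythroid gene alone, since after thinning all cells to 10000 UMIs it was seen in 50.4% of Klf1-negative cells with high primary granule genes, as against 52.9% of top-ranked and 9.46% of remaining cells. Crip2, a LIM domain protein (5.49-fold), Cpd, a carboxypeptidase (4.51-fold), Gatm, the first enzyme of creatine synthesis (4.09-fold), Nxpe2 (4.03-fold), Ift140, a ciliary transport protein (4.03-fold), and Stard10, a lipid transfer protein (4.02-fold), were also among the 12 highest. C1qtnf12, a secreted protein of the C1q and TNF family, lies outside the naming rule and was chosen after its values were seen. It had 973 CPM in the top-ranked and 283 in the remaining cells, with a UMI in 321 of the 322.

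The positions of the genes, on GRCm38, show where reads of neighbours could be mixed. St3gal6 (chr16:58468125-58524243) overlaps Dcbld2 and Sptb (chr12:76580488-76710547) overlaps Plekhg3, each on the other strand. Hba-a1 (chr11:32283511-32284465) and Hba-a2 (chr11:32296489-32297298) are near-identical copies. The same holds for Hbb-bt (chr7:103812524-103813996) and Hbb-bs (chr7:103826534-103828096). How reads were divided within each pair is uncertain, so alpha and beta globin are also given as sums.

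Globin transcripts were higher in the top-ranked cells but reached few molecules per cell. Of 10 globin genes, 3 were measured and all 3 were higher, against a background of 13.5%, with a median log2 ratio of 2.67. Summed globin stood at 287 CPM in the top-ranked and 56.5 in the remaining cells (log2 ratio 2.35, 2.28 to 2.41). The median top-ranked cell held 2 globin UMIs and the median remaining cell 0, with the highest at 358 and 544. Most cells of both groups thus carried few or no globin molecules, and single cells carried many. Hbb-bs, the other adult beta globin gene, had 135 against 34.3 CPM, 3.95-fold (3.70 to 4.21). Hbb-bt had 114 against 17.8, and Hba-a1 31.7 against 3.56 CPM. Hba-a2, under the minimum for measurement, gave 41 UMIs in the top-ranked and 26 in the remaining cells. It was seen in 10.2% of the first and 0.793% of the second. The embryonic gene Hba-x gave 12 UMIs in 3 top-ranked cells and 3 in the rest. In the top-ranked cells, 4 of the 10 globin genes had no UMI.

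A small share of the cells held most of the beta globin, within the top-ranked cells and outside them. The 43 top-ranked cells with at least 10 beta globin UMIs held 2240 of 2671 such UMIs and 210 of 381 alpha globin UMIs. Among the remaining cells 33 such cells held 2182 of 3998 beta globin UMIs, and among the next-ranked 10 held 854 of 1186. For Hbb-bt, the 10 highest cells gave 58.5% of all its UMIs in the top-ranked cells, for Hbb-bs 50.7% and for Hba-a1 29.1%. Both chains were seen in 101 of the 322 cells (31.4%), alpha alone in 39, beta alone in 103 and neither in 79 (24.5%). In the remaining cells both were seen in 119 of 2902 (4.10%) and neither in 1802 (62.1%). The next 322 cells by rank lay in between, with both in 35 (10.9%) and neither in 138 (42.9%). Top-ranked cells with both chains had a median score of 958 CPM and a median depth of 34970.0 UMIs, against 654 and 31920.0 in those with neither. At 10000 UMIs per cell, Hba-a1 was seen in 20.4% (16.1 to 25.3) of top-ranked, 2.93% of remaining and 0% of 228 granule-gene cells. Taken as a limit of 3 cells, 0 of 228 allows a share of up to 1.32%, and the exact interval reaches 1.60%.

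**Figure D1:**
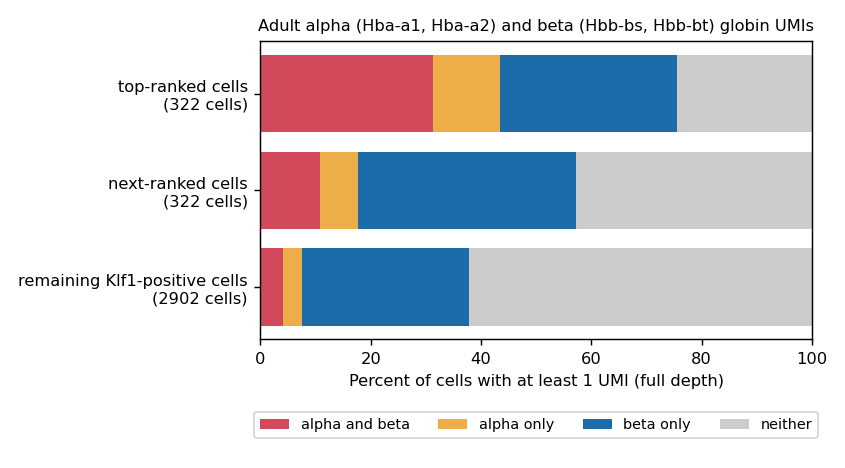
Share of cells (horizontal axis, percent, full depth) with at least 1 UMI of adult alpha globin, adult beta globin, both or neither, in the 322 top-ranked cells, the 322 cells next in rank and the 2902 remaining Klf1-positive cells, which include the next-ranked ones. Both chains were seen in 31.4%, 10.9% and 4.10% of them.

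Heme synthesis genes were higher nearly throughout. Of 13 genes 12 were measured, and 11 of these were higher and 0 lower, with a median log2 ratio of 0.76. Summed, they stood at 3468 against 2044 CPM (log2 ratio 0.76), and with the remaining cells weighted to the depth of the top-ranked ones the log2 ratio was 0.67. Along the pathway, Alad, which joins 2 aminolevulinate molecules, had 469 against 348 CPM (1.35-fold). Uros, which closes the ring, had the highest ratio of the list, 71.8 against 23.6 CPM (3.04-fold, 2.79 to 3.31). The later enzymes were higher by smaller ratios. Urod was 1.41-fold, Cpox 1.96-fold, Ppox 1.59-fold and Fech, which inserts the iron, 1.68-fold higher. Among mitochondrial carriers of the pathway, Slc25a38, the glycine carrier, was 1.70-fold, Tmem14c, a porphyrin carrier, 1.71-fold and Abcb10 1.80-fold higher. Alas1, the housekeeping first enzyme, was the exception at 13.1 against 15.3 CPM (0.856-fold, 0.713 to 1.02). Alas2, its erythroid counterpart, was under the minimum, at 3.73 against 0.391 CPM.

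Iron and heme handling genes were higher in 14 of 19 measured members and lower in 1, with a median log2 ratio of 0.32. Tfrc, the transferrin receptor, had 102 CPM in the top-ranked and 48.2 in the remaining cells (2.11-fold, 1.97 to 2.26). Slc25a37, mitoferrin 1, which carries iron into mitochondria, had 18.6 against 8.62 (2.15-fold). The ferritin heavy chain Fth1 was seen in every cell of both groups, at 4462 against 2429.8 CPM (1.84-fold). Slc40a1, the iron exporter ferroportin, was 1.71-fold, Blvrb, biliverdin reductase B, 1.65-fold, Glrx5, of iron-sulfur assembly, 1.46-fold and Steap3, the endosomal ferrireductase, 1.35-fold higher. Ncoa4, the receptor that delivers ferritin to autophagy, was the lower member, with 33.0 against 43.4 CPM. Pcbp1, an iron chaperone, stood at 973 and 948.

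Genes of the red cell membrane and its blood groups were higher in 15 of 21 measured members and lower in 1, with a median log2 ratio of 0.72. Among skeleton genes the ratios were unequal. Beside Sptb, Ank1, the ankyrin that ties spectrin to the membrane, had 56.8 CPM in the top-ranked and 14.9 in the remaining cells (3.82-fold, 3.46 to 4.22). Epb41, protein 4.1, was 1.43-fold higher, and Add1, the alpha subunit of adducin, had a ratio of 0.907. The skeleton genes Dmtn (dematin) and Epb42 (protein 4.2) were under the minimum, with 215 against 226 and 69 against 61 UMIs. They were more frequent in the top-ranked cells, with a UMI in 35.7% against 6.48% and in 17.1% against 2.00% of cells. Of the Rh complex, Rhd had 321 against 108 CPM (2.97-fold) and Rhag 131 against 53.9 (2.44-fold). Tspan33, a tetraspanin, was 3.66-fold, Kel, the Kell antigen, 2.05-fold, the water channel Aqp1 2.00-fold, Cd24a 2.00-fold and Ermap, the Scianna antigen, 1.65-fold higher. Cd47, Gypc and Icam4 lay within the 1.2-fold bounds, at ratios of 1.07, 1.07 and 1.08. Art4, the Dombrock antigen, was the lower member at 14.7 against 22.3 CPM. Slc2a1, the glucose transporter GLUT1, was also low but under the minimum, with 17 against 390 UMIs. It was seen in 4.97% of top-ranked and 11.9% of remaining cells.

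**Figure D2:**
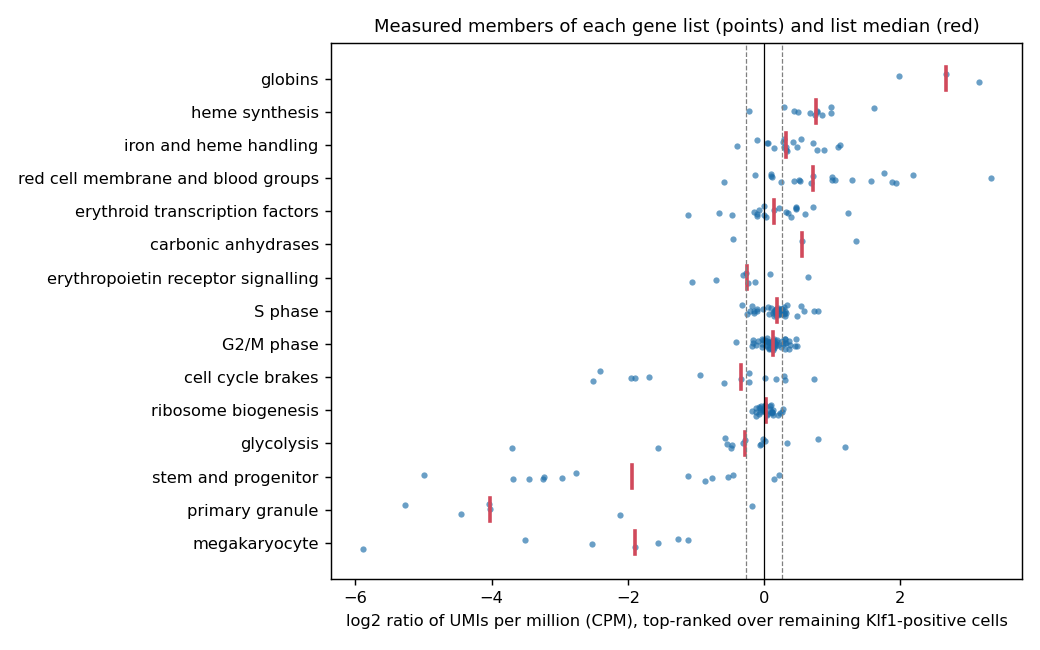
Log2 ratio of CPM, top-ranked over remaining Klf1-positive cells (horizontal axis), for the measured members of 15 gene lists, with 1 point per gene, red bars at the list medians and dashed lines at 1.2-fold in both directions. The globin, heme and membrane medians lie at 2.67, 0.76 and 0.72, and the stem and progenitor median at −1.94.

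Erythroid transcription factors went in both directions, with more of them higher than lower. Of 21 measured genes 9 were higher and 3 lower, against 13.5% and 21.2% of all genes, with a median log2 ratio of 0.14. Gata1, the master regulator of the lineage, stood at 222 against 202 CPM (1.101-fold, 1.05 to 1.15). Its partners Tal1 and Gfi1b were each 1.39-fold higher. Hemgn, a nuclear protein of erythroid cells, had 74.7 against 31.8 CPM (2.35-fold). E2f4, a cell cycle factor needed for red cell formation, was 1.65-fold and E2f2 1.38-fold higher. Sox6, which acts on globin switching, was under the minimum with 52 against 134 UMIs. It was seen in 13.7% of top-ranked and 4.55% of remaining cells. The lower members were Nfe2, a globin activator (55.8 against 121 CPM, 2.18-fold lower), the corepressor Cbfa2t3 (1.59-fold lower) and Lyl1, a relative of Tal1 (1.39-fold lower). Bcl11a, Lmo2 and Foxo3 stayed within the bounds, at ratios of 1.02, 0.902 and 0.927.

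Stem and progenitor genes were lower. Summed, the 27 genes stood at 624 against 1066 CPM (log2 ratio −0.77, −0.81 to −0.74). Of the 27 genes 14 were measured, of which 0 were higher and 12 lower (background 21.2%), with a median log2 ratio of −1.94. Many of the 12 reached the minimum mostly through the remaining cells, so this count and median are descriptions only. In the top-ranked cells 8 of the 27 had no UMI, as against 6 in the remaining cells. Gata2, the GATA factor of early progenitors, had 49 UMIs in 42 top-ranked cells, 4.57 against 50.04 CPM, 10.9-fold lower (8.26 to 14.8). Meis1, a homeobox partner of HOX factors, had 5 UMIs in the top-ranked cells and was 32.0-fold lower (13.7 to 98.6). Both genes were thus nearly absent from the top-ranked cells. Fli1, an ETS factor of megakaryocyte precursors, was 12.9-fold, Spi1, the myeloid factor PU.1, 6.81-fold, Sox4 9.41-fold, Angpt1, a ligand of the TIE2 receptor, 9.50-fold and Itga2b, integrin alpha IIb, 7.81-fold lower. Smaller ratios were seen for Myb, which keeps progenitors dividing, at 154 against 262 CPM (1.71-fold lower), and for Myc at 253 against 367 (1.45-fold lower). Etv6 was 2.16-fold, Cd48 1.83-fold and Runx1 1.37-fold lower. Only Kit and Cd44 of the measured members stayed within the bounds, at ratios of 1.100 and 1.16. Cd34, under the minimum, had 2 UMIs in 1 top-ranked cell and 108 in 33 remaining cells.

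Along the rank most of these differences ran in steps. Gata2 went from 109 CPM in the 729 cells with no ranking UMI to 41.5 in the fifth group of cells by rank, 16.4 in the next-ranked and 4.57 in the top-ranked cells. Meis1 went from 39.8 through 9.90 and 2.46 to 0.466. Rhd showed the opposite order, with 49.6, 109, 191 and 321. St3gal6 and Sptb stayed under 2 CPM up to the fifth group. They then reached 8.62 and 8.43 in the next-ranked and 38.3 and 29.4 in the top-ranked cells. Hbb-bt was uneven, with 35.1 in the fourth group against 11.5 in the third. Kit ran from 26.2 in the cells with no ranking UMI to 37.9 in the third group and stood at 33.7 in the top-ranked cells.

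**Figure D3:**
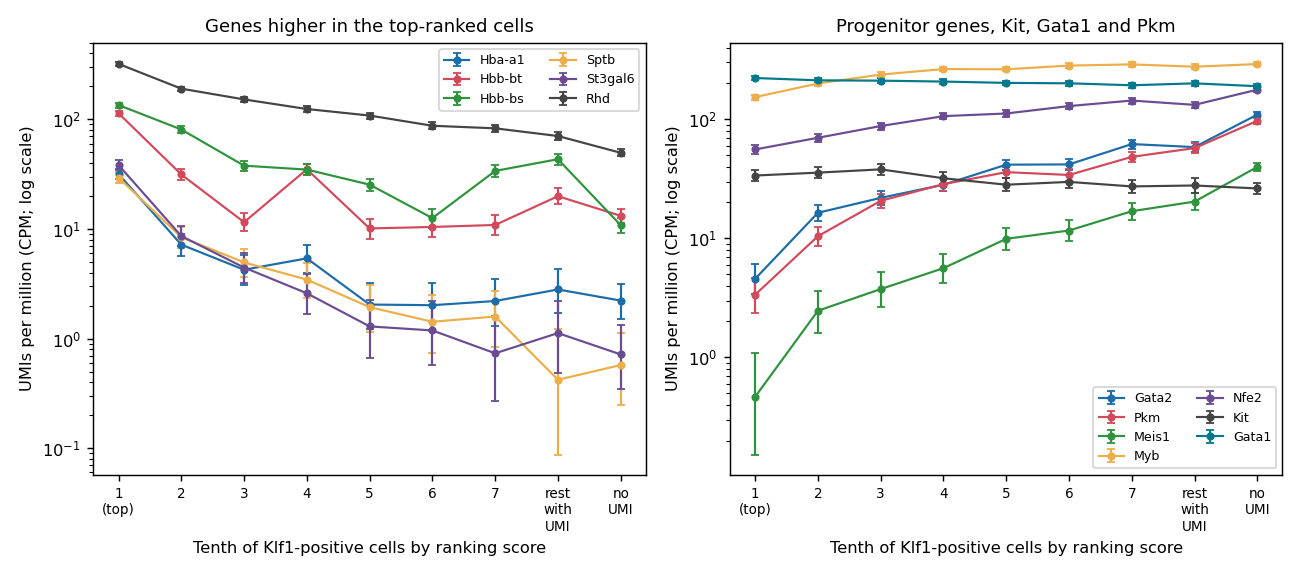
CPM (vertical axis, log scale, bars 95% Poisson intervals) of 13 genes in Klf1-positive cells of the AG-120 library ordered by ranking score (horizontal axis), from the top-ranked cells (1) to cells without a ranking UMI. Rhd, St3gal6 and Sptb are highest at the top, Gata2, Pkm and Meis1 are highest at the bottom, and Kit lies between 26.2 and 37.9.

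Erythropoietin signalling and the carbonic anhydrases gave values in both directions. Epor, the erythropoietin receptor, had 134 against 86.1 CPM (1.56-fold, 1.47 to 1.65) and was the 1 higher gene of 8 measured, while 4 were lower. Lyn, a kinase of the pathway, was 2.08-fold and Pim1, a STAT5 target, 1.63-fold lower. The target Cish was under the minimum, with 45 against 446 UMIs. So was Erfe, erythroferrone, which signals iron demand to the liver, with 20 against 52. Car2, carbonic anhydrase 2, had 1497 against 588 CPM (2.55-fold) and was seen in all 322 top-ranked cells. Car1 had 903 against 613 (1.47-fold) and a UMI in 289 of 322 cells (89.8%), as against 2274 of 2902 (78.4%). Car13 was 1.37-fold lower.

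Genes of cell division were not lower in the top-ranked cells. Of 42 measured S phase genes 12 were higher and 1 lower, with a median log2 ratio of 0.18. Of 51 measured G2/M genes 12 were higher and 1 lower, with a median of 0.13. Summed G2/M genes stood at 8361 against 7684 CPM (log2 ratio 0.12), and the ratio was 0.01 with the remaining cells weighted to equal depth, and 0.16 with all cells thinned to 10000 UMIs. Rrm2, a subunit of the enzyme that makes deoxynucleotides, had 238 against 137 CPM (1.74-fold). Ccne2, a cyclin of S phase entry, was 1.67-fold, the licensing factor Cdc6 1.504-fold and Clspn 1.45-fold higher. Among G2/M genes Aurka, a spindle kinase, and Hmmr were each 1.39-fold higher, whereas Mki67 and Hmgb2 had ratios of 1.11 and 1.05. The single lower members were Rfc2 (1.25-fold) and Kif2c (1.34-fold).

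Several brakes were lower, and G1 drivers went in both directions. Of 15 measured brakes 8 were lower and 3 higher, with a median log2 ratio of −0.34. Summed, the brakes stood at 323 CPM in the top-ranked and 406 in the remaining cells. The next-ranked cells had 329 CPM (log2 ratio −0.02, −0.09 to 0.04), so the sum was level there. The CDK inhibitor genes Cdkn1a (p21), Cdkn2d (p19) and Cdkn1b (p27) had 2.05 against 7.99, 9.05 against 33.8 and 12.1 against 18.3 CPM. The antiproliferative genes Btg1 and Btg2 were 1.92-fold and 3.22-fold lower. Rb1, the retinoblastoma gene, was 1.65-fold and Cdkn2c (p18) 1.22-fold higher. Of 6 measured G1 cyclins and kinases 1 was higher and 3 were lower. The higher one, Ccne1, had a log2 ratio of 1.25, with a UMI in 273 of 322 top-ranked and 1469 of 2902 remaining cells. Ccnd2 was 1.60-fold, Ccnd3 1.51-fold and Cdk6 1.48-fold lower. Against the next-ranked cells alone Ccnd3 was not lower, at a log2 ratio of 0.07.

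In glycolysis the isozymes went in opposite directions. Pklr, the pyruvate kinase of red cells and liver, had 171 against 74.6 CPM (2.28-fold higher), and Pkm, the form of most other tissues, 3.36 against 43.8 (13.03-fold lower, 9.39 to 18.6). Likewise Pfkm, the muscle-type phosphofructokinase also found in red cells, was 1.74-fold higher and Pfkp 2.95-fold lower. Of 15 measured genes 3 were higher and 8 lower. Aldoa was 1.47-fold, Pgk1 1.49-fold and Ldha 1.21-fold lower, and Gapdh had a ratio of 1.00 (2712 against 2700.1 CPM).

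Other lists of red cell biology had smaller shares of higher genes. Of 19 measured antioxidant genes 4 were higher, among them Prdx2, the abundant peroxiredoxin of red cells (1629.9 against 829.6 CPM, 1.96-fold), and Gstm5 (2.21-fold). Cat, catalase, had a ratio of 0.875. Of 9 amino acid transporters 3 were higher and 1 lower, with Slc38a5, a glutamine carrier, at 83.8 against 31.0 CPM (2.70-fold) and Slc43a1 1.56-fold higher. Slc39a8, a zinc importer, was 3.62-fold higher, Slc39a1 1.57-fold lower, and the metallothioneins Mt2 and Mt1 had ratios of 1.49 and 1.03. The higher level of Mt2 was not seen against the next-ranked cells (log2 ratio −0.0047). Mfsd2b, which exports sphingosine 1-phosphate, was 1.30-fold lower, while Sphk1, which makes it, belongs to the ranking.

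The lists of late red cell remodelling did not share 1 direction. Of 12 measured genes of nuclear condensation and enucleation 6 were lower (background 21.2%) and 2 higher, with a median log2 ratio of −0.26. Summed, this list was lower, at 776 against 1002 CPM (log2 ratio −0.37, −0.40 to −0.34). Rac2, a small GTPase, had 82.0 against 203 CPM (2.47-fold lower), the formin Diaph1 was 2.34-fold and Xpo7, a nuclear exportin, 2.31-fold lower, and Plek2 1.71-fold higher. Rac2 and Diaph1 are also made by other blood cells, and Rac2 was seen in all 228 granule-gene cells at equal depth. Of 19 autophagy genes 3 were higher and 5 lower, shares near the background, with Bnip3l, the receptor for clearing mitochondria, at 205 against 256 CPM (1.25-fold lower). Bnip3 was 1.91-fold lower and Wipi1 1.61-fold higher. Of 8 measured genes of ubiquitin remodelling in red cells 3 were higher and 1 lower. Their median log2 ratio was 0.12, whereas that of their sum was −0.15. Of 12 apoptosis genes 3 were higher, among them Bcl2l11, the death activator BIM (2.32-fold), and Bax (1.36-fold). Of the 5 lower ones, the survival gene Bcl2 had 2.61 against 9.08 CPM (3.48-fold) and Pmaip1, the death activator NOXA, was 2.69-fold lower.

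The protein-making and respiratory machinery was level. None of 81 ribosomal protein genes and none of 13 mitochondrially encoded genes passed 1.2-fold in either direction, with medians of −0.02 and 0.02. Of 30 ribosome biogenesis genes 1 was higher, with Npm1 and Ncl at ratios of 1.06 and 1.08. Of 74 nuclear genes of oxidative phosphorylation 4 were higher and 0 lower. Idh1, whose mutant protein is the target of AG-120, had 8.40 CPM in the top-ranked and 17.5 in the remaining cells, and the counts do not tell mutant from normal transcripts. Dnmt3a was 1.58-fold lower and Nras had a ratio of 0.946. Itgam, which encodes the Cd11b protein of the sort, had 0 UMIs in the top-ranked and 15 in the remaining cells.

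The 12 lowest ratios fell on genes of several kinds, and 4 of them rest mostly on 1 remaining cell each. All 12 reached the minimum only through the remaining cells. Ngp and Plxdc2 had no UMI in the top-ranked cells and 677 and 539 in the remaining ones, so with a floor of 3 UMIs over the group they were at least 31.6-fold and 25.1-fold lower. A single remaining cell held 668 of the 677 UMIs of the neutrophil granule gene Ngp, and without it 9 UMIs are left, too few for a ratio. The highest cell likewise held 88.7% of the UMIs of S100a9, 95.4% of those of Stfa1 and 92.0% of those of Cd74, the class II invariant chain. Without that cell, taken for each gene, their levels in the remaining cells were 2.10, 0.313 and 0.535 CPM. For the other 8 genes the highest cell held at most 14.0%. Ngp was seen in 10 remaining cells, S100a9 in 52 and Stfa1 in 21, while Vim, the intermediate filament vimentin, was seen in 1542 and Plac8 in 714. Vim had 1.77 CPM in the top-ranked and 90.6 in the remaining cells (51.1-fold lower, 32.7 to 84.9), and Plac8 0.466 against 52.7. The Vim difference thus rested on many remaining cells. At equal depth Vim was seen in 1.59% of top-ranked and 36.8% of remaining cells, so most remaining cells had no Vim UMI there. With 1 to 3 UMIs in the top-ranked cells, S100a9 had a ratio of 0.0101 (0.00122 to 0.0364), Tuba8 0.0108 (0.000274 to 0.0605) and Pdlim2 0.0130 (0.000327 to 0.0725). Those of Stfa1, Cd74, Fcer1g, Pf4 and Gm2a were 0.0138, 0.0140, 0.0152, 0.0168 and 0.0186.

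Summed markers of the other cells that the sort could hold were lower in the top-ranked than in all remaining cells, except that the class II difference rests mostly on 1 cell. All 7 measured megakaryocyte genes were lower (background 21.2%), and the summed list of 15 stood at 52.1 against 187 CPM, with 5 members at 0 in the top-ranked cells. Of 6 measured primary granule genes 5 were lower (background 21.2%). Both counts are of genes that reached the minimum mostly through the remaining cells, and they are descriptions only. Mpo, myeloperoxidase, had 2.52 against 41.4 CPM, Ctsg 0.466 against 18.04 and Prtn3 8.86 against 38.3, whereas Calr, a chaperone of all cells, had a ratio of 0.887. Summed neutrophil genes stood at 0.933 against 48.2, with 8 of 12 at 0 in the top-ranked cells, but 1 remaining cell held 3167 of the 3698 UMIs, and the level without it was 6.93 CPM. The sums were 3.54 against 21.8 for 18 monocyte and macrophage genes (12 at 0) and 1.40 against 37.2 for 10 basophil, mast cell and eosinophil genes (5 at 0). For 15 lymphoid genes (12 at 0, and 8 at 0 in the remaining cells) they were 2.43 against 89.8 CPM. For 7 class II antigen presentation genes (3 at 0) they were 12.8 against 23.8 CPM. Of this class II sum 1 remaining cell held 739 of 1823 UMIs. Without it the remaining cells had 14.1 CPM, and those with a Car1 UMI had 13.8 (log2 ratio −0.11, −0.38 to 0.15). The lymphoid sum was nearly all Nkg7 (6419 of 6882 UMIs in the remaining cells). Against the next-ranked cells all these sums differed less. The log2 ratios were −0.29 (−1.65 to 1.05) for neutrophil and −0.51 (−1.57 to 0.52) for basophil, mast cell and eosinophil genes. They were −0.17 for primary granule and −0.33 for class II genes. Megakaryocyte, monocyte and macrophage, and lymphoid genes had −1.03, −1.84 and −2.29. Together, Mpo, Elane, Prtn3 and Ctsg reached 200 CPM in 1 top-ranked and 103 remaining cells. Without those 103 cells the log2 ratio was 1.09 for Mpo and 0.34 for Cd34. Mpo was part of that choice, and cells were left out on the remaining side only, so its turn follows in part from the choice. In the top-ranked cells Mpo had 27 UMIs in 16 cells and Cd34 2 UMIs in 1 cell, so no conclusion is drawn. The stem and progenitor sum without the 103 cells was −0.75 on the log2 scale, close to −0.77 with them.

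After thinning to 10000 UMIs, which left out 8 top-ranked, 101 remaining and 23 granule-gene cells, the shares of Rhd, Gata2, Pkm and Hbb-bt kept the order they had at full depth. Where shares were close the order could turn, as for Foxo3 with 52.8% of top-ranked and 48.3% of remaining cells at full depth and 19.7% and 22.7% at equal depth. Rhd was seen in 89.8% (85.9 to 92.9) of top-ranked and 56.5% of remaining cells (unthinned, 318 and 2228 cells). Gata2 was seen in 5.10% (2.94 to 8.14) and 34.0% and Pkm in 2.87% and 28.1%. In the 228 granule-gene cells, median depth 20944 UMIs before thinning, Rhd was at 0%. There Pkm was seen in 99.1% and Gata2 in 53.1%. Hbb-bt was seen in 25.8%, 8.85% and 7.02% of the 3 groups, so its share in the remaining cells lay near that of the granule-gene cells. Its near-identical copy Hbb-bs did not show this, with 25.2%, 12.2% and 0.877%.

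**Figure D4:**
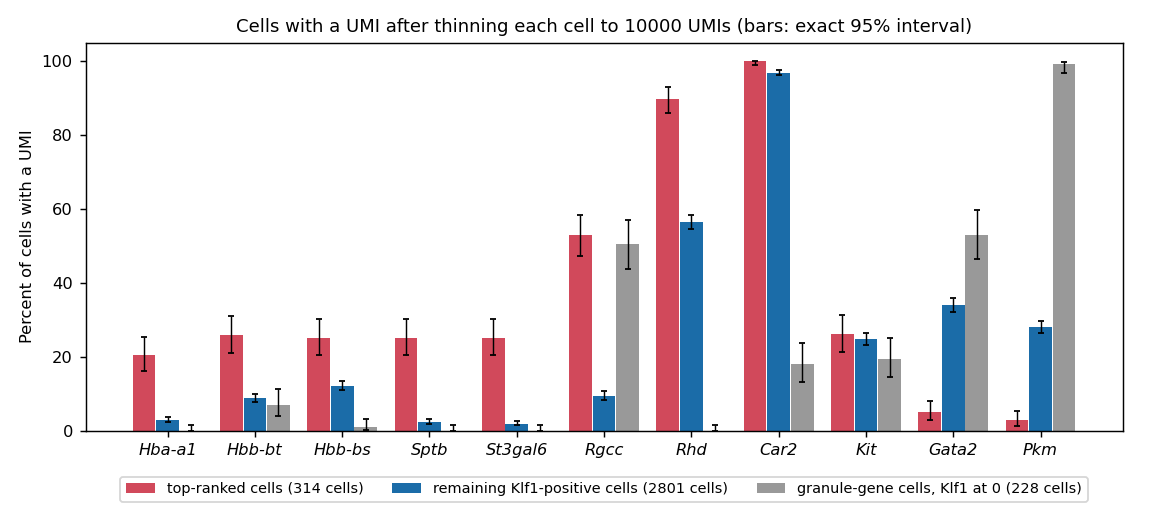
Percent of cells with at least 1 UMI (vertical axis, bars exact 95% intervals) for 11 genes after thinning each cell to 10000 UMIs, in top-ranked, remaining Klf1-positive and Klf1-negative granule-gene cells. Kit is close in the first 2 groups (26.1% and 24.8%), Rhd is most frequent in the top-ranked cells, and Pkm is least frequent there.

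Because earlier cells of the path are among the remaining cells, the comparison was repeated with cells closer to the top-ranked ones. Among the 2274 remaining cells with a Car1 UMI, 7685 genes were measured, and 1022 (13.3%) were higher and 1454 (18.9%) lower in the top-ranked cells. The medians there were 2.69 for globins, 0.72 for heme synthesis, 0.68 for membrane genes and −1.75 for stem and progenitor genes. Against the next 322 cells by rank, with scores of 317 to 530.5 CPM and a median depth of 33093.5 UMIs, 4714 genes were measured and 334 (7.09%) were higher and 290 (6.15%) lower. Of the heme genes 10 of 11 were higher there and of the membrane genes 11 of 18, with medians of 0.40 and 0.37. Of 6 measured stem and progenitor genes 3 were lower and 0 higher there, with a median of −0.24. St3gal6 had 38.3 against 8.62 CPM (log2 ratio 2.15), Hba-a1 31.7 against 7.20 (2.14) and Sptb 29.4 against 8.43 (1.80). Rhd had a log2 ratio of 0.75, Car2 0.71 and Tfrc 0.44. Gata2 stood at 4.57 against 16.4 CPM (−1.84), Pkm at −1.63, Myb at −0.38 and Nfe2 at −0.33 on the log2 scale. Of these genes Hba-a1, Sptb, Gata2 and Pkm had under 500 UMIs over both groups, so they were not measured in this comparison. The other genes named here still differed between neighbouring groups of nearly equal depth.

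**Figure D5:**
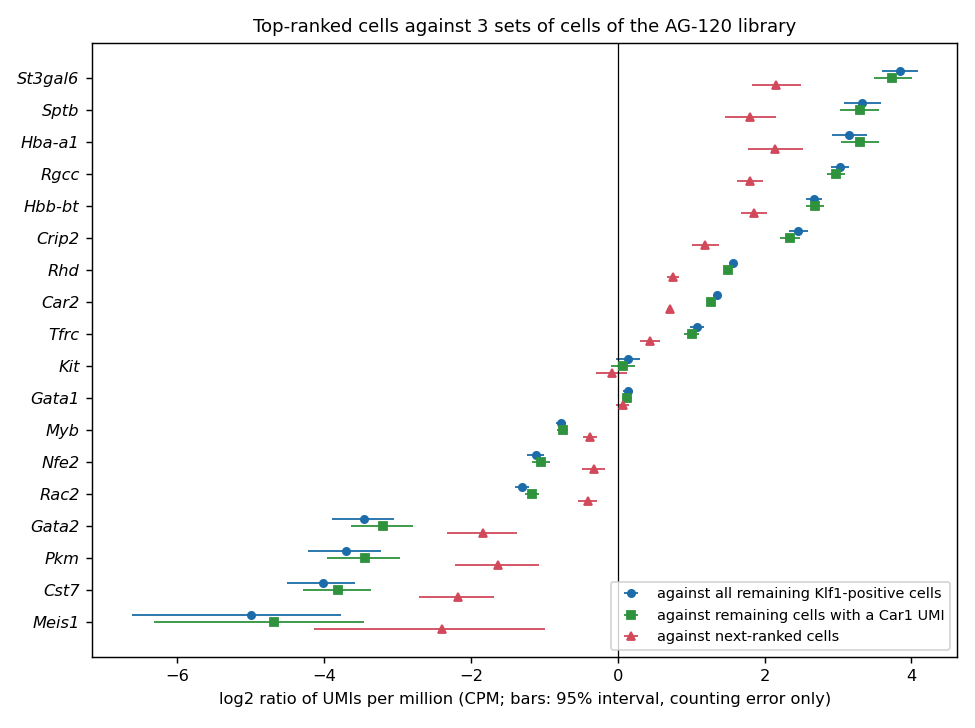
Log2 ratio of CPM (horizontal axis, bars 95% intervals for counting error) of 18 genes in the top-ranked cells over all remaining cells, over remaining cells with a Car1 UMI and over the next-ranked cells. Ratios lie nearer to 0 for the next-ranked cells, as for St3gal6 (3.84 and 2.15) and Gata2 (−3.45 and −1.84). Some ratios over the next-ranked cells, as that of Gata2, rest on fewer than 500 UMIs.

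Within the top-ranked cells, the 161 with the higher scores were compared with the 161 with the lower ones (medians of 959 and 639 CPM, and of 32694 and 35102 UMIs per cell). Of 3016 measured genes 234 (7.76%) were higher and 200 (6.63%) lower in the first. Hbb-bt had 217 against 19.6 CPM (log2 ratio 3.47), Hbb-bs 248 against 33.3 (2.89) and Hba-a1 54.5 against 11.0 (2.30). Within the top-ranked cells, globin was thus concentrated in the upper group. Outside them, the highest next-ranked cell held 544 globin UMIs, against 358 in the highest top-ranked cell. Sptb had a log2 ratio of 1.24 and Rhd of 0.67. Of the S phase genes 19 of 31 were higher and 0 lower, with Rrm2 at 0.88. Kit was lower in the upper group, with 29.0 against 37.9 CPM (−0.39, −0.70 to −0.08), and Gata1 level (0.00). Hba-a1, Sptb and Kit, with 340, 315 and 361 UMIs over all top-ranked cells, were under the minimum in this comparison.

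In the vehicle library, 5 of the 342 Klf1-positive cells reached the score boundary of the AG-120 library (1.46%, exact interval 0.476 to 3.38). The score and its boundary are the rule's own, so this share is a description only. Together these 5 cells held 205182 UMIs, 6285 to 54366 per cell. Their summed UMIs gave 463 CPM for Rhd and 1842 for Car2, next to 321 and 1497 in the top-ranked AG-120 cells. Hbb-bs gave 668 CPM (137 UMIs) next to 135. Gata2 and Pkm had 0 UMIs in them. No comparison was drawn from 5 cells of a library of other depth, with a median of 13156.5 UMIs per kept cell as against 25681.5.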

How the data were processed

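Droplet single-cell RNA was counted in 2 mouse libraries, 1 per treatment. The deposited matrices hold raw counts (UMIs per gene and barcode, whole numbers without normalization) of 31053 genes, per the file headers. The tools named by the submitters' processing notes are Cell Ranger 3.1.0 and Seurat 4.0.4, with build mm10/GRCm38, while the headers give software version 3.0.2. Per the labels' protocols a 5′ kit was used, whereas the design text names a 3′ platform, so the counted transcript end is not settled.

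Kept barcodes (3756 AG-120, 3914 vehicle) had 500 or more genes and no more than 10% mitochondrial UMIs. UMIs were summed over cells and scaled to CPM. Ratios carry exact conditional binomial intervals, levels Poisson and shares Clopper-Pearson intervals, at 95%, for counting error only (scipy 1.17.1). A gene was measured with at least 500 UMIs over both groups, and a ratio of 1.2 is a description, not a test. Scrublet (scanpy 1.11.5) marked 2 of 3756 cells, too few to have worked, so no doublets were removed. Granule-gene cells, the free RNA background, are 251 AG-120 cells with no Klf1 UMI and at least 2000 CPM of Mpo, Elane, Prtn3 and Ctsg. Positions come from GENCODE M21, in which 30934 identifiers matched.

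Named genes are the 12 highest and 12 lowest ratios (without ranking, model, mitochondrial, ribosomal and sex-linked genes), members of the lists, Idh1, Dnmt3a, Nras and Itgam. Some genes that the rule selects are not reported here, but count in their lists. Genes under the minimum were named after their values were seen. The members, lists and rules were chosen with earlier results of these data known. Ratios were tested on simulated counts.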

Additional observations from a re-analysis of the deposited data

How the results depend on the processing

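No paired analysis was possible because each treatment has 1 library and the compared cells are groups of 1 library. Of the genes named in the report 146 passed 1.2-fold. Over the alternatives that change the cells, the ranking, the weighting or the scaling, 138 to 146 of them kept their direction past 1.2-fold, and against the next-ranked cells 118 of the 141 with a value did. Reversed log2 ratios were 0.074 for Ccnd3 and −0.0047 for Mt2 against the next-ranked cells, and 0.34 for Cd34 and 1.09 for Mpo without granule-gene cells; the cause was not tested. Itgam, with 0 UMIs in the top-ranked cells and 15 in the rest, gave no ratio. Some comparisons were chosen after seeing the data. They are those with Car1-positive cells, with the next-ranked cells and without those 103 remaining cells, and the sums without the highest remaining cell.

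Log2 ratios of the 4 sums (globins, heme synthesis, stem and progenitor, G2/M, in this order; main values 2.35, 0.76, −0.77 and 0.12) were as follows where they left the counting interval, and none changed sign. Taking the top 5% gave 3.21, 0.93, −0.95 and 0.18, and the top 20% 2.14, 0.64, −0.62 and 0.037. Weighting cells equally gave 2.97, 0.83, −0.88 and 0.16, and thinning to 10000 UMIs 2.18, 0.83, −0.84 and 0.16. Ranking anew after thinning gave 2.20, 0.80 and −0.84 for the first 3. Weighting the remaining cells to the depth of the top-ranked ones gave 2.23, 0.67, −0.64 and 0.0085. The next-ranked cells gave 1.25, 0.41, −0.39 and 0.16. Dropping the 5% of cells with the most UMIs gave 2.25 for globins and 0.089 for G2/M, and stricter filters (1000 genes, 5% mitochondrial) 2.28 for globins. Heme synthesis gave 0.73 without Hebp1 in the ranking, 0.73 against Car1-positive cells and 0.75 without the 103 remaining cells high in granule genes. Stem and progenitor genes gave −0.72 without Hebp1 and −0.72 against Car1-positive cells. G2/M gave 0.10 without Sphk1, 0.10 without Add2, 0.11 with 2 or more Klf1 UMIs and 0.14 after median centring.

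Counts of higher and lower genes (1086 and 1710) depended on the minimum and the bound. They were 596 and 738 at 2000 UMIs, 2651 and 6921 at 1 UMI, 303 and 755 at 1.5-fold, and 334 and 290 against the next-ranked cells, where fewer genes were measured, with 2813 lower at 100 UMIs.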

Other observations

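Interferon-stimulated genes showed no common direction in the top-ranked cells. Of 19 measured genes 5 were higher (background 13.5%) and 6 lower (21.2%), with a median log2 ratio of −0.04. Isg15, a ubiquitin-like protein of the response, had 52.2 CPM in the top-ranked and 55.8 in the remaining cells, and its 10 highest cells held 37.7% of its UMIs in the top-ranked cells. Irf7, a factor that drives the response, was 1.24-fold higher, with 23.0% of its UMIs in 10 cells. Within the top-ranked cells both were higher among the 161 with the higher scores, at log2 ratios of 0.83 and 0.90. Irf7 was under the minimum there, with 396 UMIs.

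Histone genes had 12 higher and 5 lower members of 40 measured, with a median log2 ratio of 0.12 and sums of 1727 against 1556 CPM. Of 13 heat shock genes 1 was higher and 1 lower, with a median of 0.01. Of 8 ubiquitin genes linked to red cell remodelling 3 were higher and 1 lower. The summed ubiquitin list was lower, with 2032 against 2262 CPM, while its median log2 ratio was 0.12. Of 12 measured sphingolipid genes 2 were higher and 6 lower.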
